A study of Mus musculus with 6 samples.

Results

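The genes described here build the mitochondrial ribosome or bring proteins into mitochondria: those whose 1 symbol in the platform annotation starts with Mrpl, Mrps, Timm or Tomm. They number 64 of the 6146 genes measured, with 32 Mrpl, 16 Mrps, 10 Timm and 6 Tomm genes, and were set against the 6082 other genes. They were measured in brain RNA of male mice, 9 weeks old, hybridised to 6 BMAP cDNA arrays of 2 colours. The first strain, NY1DD, is a transgenic mouse model of sickle cell anemia and filled 3 arrays; the wild-type strain C57BL/6J filled the other 3. Within each strain, total RNA taken 10 min after naloxone, an antagonist of opioid receptors, was labelled with Cy5 and total RNA taken 10 min after saline with Cy3. Both strains had the same dyes, age, sex and time, and the genotype of NY1DD beyond the strain's name is not given in the sources used here.

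Each value is a log2 ratio, likely of naloxone over saline, because the design text gives Cy5 to naloxone; were the ratio deposited the other way up, each sign would flip. No array had its dyes swapped, so a dye bias and naloxone cannot be told apart within a strain, whereas a bias shared by all arrays cancels between strains. The labels do not say whether arrays come from separate animals or pools, so p-values measure the spread between these arrays, which may be technical. C57BL/6J replicates 1 and 2 share a number in their titles whose meaning is not stated, and no such number occurs in both strains. Ratios hold no level of a gene, so the labelled tissue could not be checked by its markers, and fewer cells of a type cannot be told apart from less RNA per cell. Between 11155 and 11413 probes per array were usable. The Pearson correlation between arrays across features ran from -0.0701 to 0.191.

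Mitochondria keep a small genome of their own, and a dedicated ribosome inside them translates its few messages into core subunits of the respiratory chain. Nuclear genes encode all the proteins of that ribosome, with a large subunit (Mrpl) that forms peptide bonds and a small subunit (Mrps) that reads the message. These proteins are made in the cytosol and imported: the TOM complex of the outer membrane (Tomm) receives precursors, and the TIM complexes of the inner membrane and the small Tim chaperones between the membranes (Timm) pass them on. Neurons depend on mitochondria for the energy of synaptic transmission.

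Many promoters of such genes are known for sites of ETS-family factors such as GABP, also called NRF-2, which tie nuclear genes to mitochondrial function. RefSeq promoter windows (GRCm38.p6, 250 bases before to 50 after a start) were at hand for 60 of the 64 genes, in 66 windows; Mrpl15, Mrpl4, Mrps34 and Timm21 had no entry. The ETS core CCGGAAG or its reverse CTTCCGG lay in 23 of the 66 member windows, or 34.8%, against 15.9% of 6507 windows of other measured genes and 8.86% of all 32851 windows. The windows below were cut 30 bases after the start, with matches to the ETS core in capitals. They belong to the members named for the difference between strains, by the smallest p on each side of 0 and not by size. Mrpl48, which that rule also names, has several starts and is not shown.
Mrpl12 (chr11:120484387-120484666, + strand): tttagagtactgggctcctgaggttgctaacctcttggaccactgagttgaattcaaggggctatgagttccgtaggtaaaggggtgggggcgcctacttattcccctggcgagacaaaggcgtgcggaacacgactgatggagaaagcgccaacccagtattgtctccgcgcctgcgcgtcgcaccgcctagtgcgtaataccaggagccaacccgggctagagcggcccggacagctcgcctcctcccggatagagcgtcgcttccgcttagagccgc
Mrpl14 (chr17:45686099-45686378, + strand): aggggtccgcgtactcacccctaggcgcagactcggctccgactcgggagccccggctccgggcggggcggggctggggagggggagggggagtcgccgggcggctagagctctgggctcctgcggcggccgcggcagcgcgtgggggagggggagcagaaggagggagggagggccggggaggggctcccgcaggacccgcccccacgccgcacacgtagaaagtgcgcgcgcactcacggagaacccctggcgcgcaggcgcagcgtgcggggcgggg
Mrpl3 (chr9:105053018-105053297, + strand): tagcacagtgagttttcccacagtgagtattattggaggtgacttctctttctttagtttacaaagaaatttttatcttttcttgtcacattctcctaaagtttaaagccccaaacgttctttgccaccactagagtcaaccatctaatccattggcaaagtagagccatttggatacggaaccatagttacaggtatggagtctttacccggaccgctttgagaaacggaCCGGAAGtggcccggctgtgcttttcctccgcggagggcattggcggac
Mrps22 (chr9:98601650-98601929, - strand): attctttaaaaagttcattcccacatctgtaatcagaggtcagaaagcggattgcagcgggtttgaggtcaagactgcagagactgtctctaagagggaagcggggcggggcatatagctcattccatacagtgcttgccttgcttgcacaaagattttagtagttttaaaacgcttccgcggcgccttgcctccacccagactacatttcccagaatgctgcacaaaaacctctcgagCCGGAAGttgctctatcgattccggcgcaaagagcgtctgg
Mrps23 (chr11:88204138-88204417, + strand): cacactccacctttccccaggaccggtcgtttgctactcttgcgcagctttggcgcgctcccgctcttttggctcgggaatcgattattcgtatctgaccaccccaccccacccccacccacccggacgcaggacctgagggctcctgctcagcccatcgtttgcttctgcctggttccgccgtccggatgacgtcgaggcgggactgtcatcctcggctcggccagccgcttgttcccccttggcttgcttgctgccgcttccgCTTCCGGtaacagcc
The windows of Mrpl3, Mrps22 and Mrps23, whose mean log2 ratio was lower in NY1DD than in C57BL/6J, hold an ETS core. Those letters are not in the windows of Mrpl12 and Mrpl14, whose mean log2 ratio was higher in NY1DD. Mrpl48, with a mean log2 ratio also higher in NY1DD, does hold an ETS core in at least 1 of its windows. The motif thus does not divide the named genes by direction. Of all 60 genes, the 22 with an ETS core had a median difference between strains of 0.10, against 0.04 for the 38 without.

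The mitochondrial ribosome and import genes stayed close to all other genes on each array. Their median log2 ratio was 0.07, 0.07 and 0.01 on the NY1DD arrays, against -0.06, 0.05 and 0.03 on the C57BL/6J arrays. For the other genes the medians lay between -0.01 and 0.01 on the 6 arrays. The members' median minus that of the other genes averaged 0.05 ± 0.04 in NY1DD and 0.00 ± 0.06 in C57BL/6J (SD, n = 3 arrays each), and the arrays of the strains overlapped. On C57BL/6J replicate 1, 24 of 64 members lay above 0, the lowest count of the 6 arrays, and on C57BL/6J replicate 2, 38 of 64 did, the highest. Those were 37.5% and 59.4%, against 49.3% and 49.6% of all features. On replicate 1, 13 of 40 cytosolic ribosomal proteins and 21 of 58 oxidative phosphorylation genes lay above 0. On replicate 2, 30 of 40 and 40 of 58 did, so the swing was not particular to the members. In the strain means, 38 of 64 members lay above 0 in NY1DD (median 0.05, against -0.02 over all features) and 31 of 64 in C57BL/6J (median -0.02, against 0.00 over all features). The spread between arrays was ordinary as well, with a median SD of 0.30 in NY1DD and 0.24 in C57BL/6J for members, against 0.31 and 0.24 for the other genes.

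**Figure D1:**
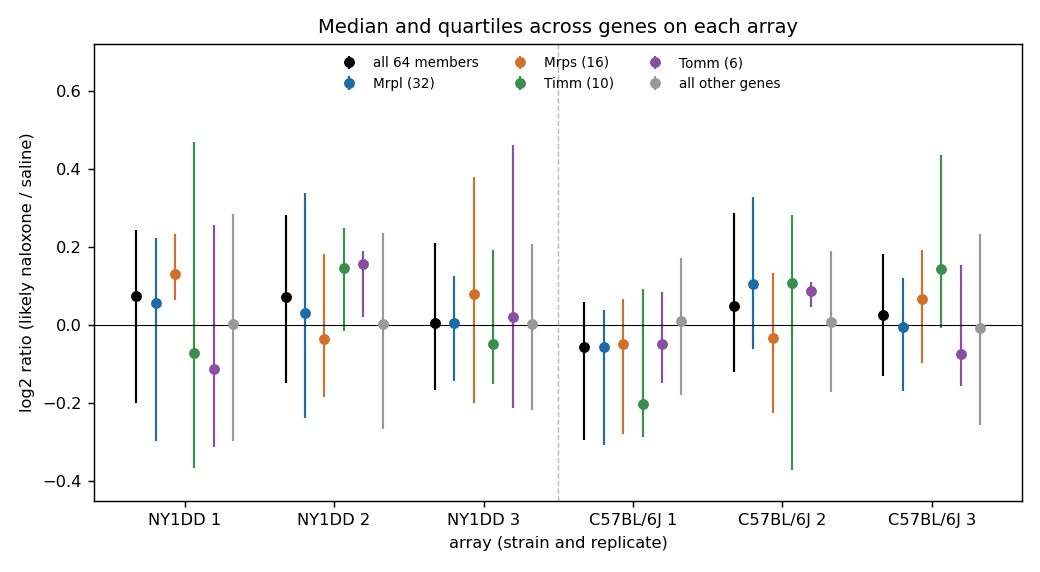
Median log2 ratio (points) and quartiles across genes (bars) on each array, NY1DD left and C57BL/6J right, for all members, the 4 gene families and all other genes. The medians of all members lie between -0.06 and 0.07, inside the quartiles of the other genes on every array.

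No gene of the set passed in any comparison. With limma's moderated test and Benjamini-Hochberg adjustment over 9685 features, 0 of 64 members passed a threshold of 0.05, as did 0% of all features, in NY1DD, in C57BL/6J, in the difference between strains and in the average of both. At an unadjusted p under 0.05 stood 7 of 64 members in NY1DD, or 10.9%, against 8.35% of all features. Of these 7, Mrpl14, Mrps34, Tomm34 and Timm17b were above 0 (6.25%, against 3.46% of all features) and Mrpl3, Mrps23 and Timm21 below (4.69%, against 4.89%). In C57BL/6J 1 of 64 stood there, or 1.56%, against 6.93% of all features: Mrpl12, below 0 (1.56%, against 5.17%), with 0 of 64 above 0, against 1.76%. That C57BL/6J count was 2 of 64 without C57BL/6J replicate 1 (3.12%, against 6.03% of all features). Strain means past 1.5-fold were those of Mrpl3, Mrps23, Mrps34 and Timm21 in NY1DD (4 of 64, 6.25%, against 7.8% of all features) and Mrpl12 in C57BL/6J (1 of 64, 1.56%, against 6.61%). Given the small number of arrays, a missed threshold does not show that a gene kept its level, so means printed with a test carry their standard error (SE, from the limma model).

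**Figure D2:**
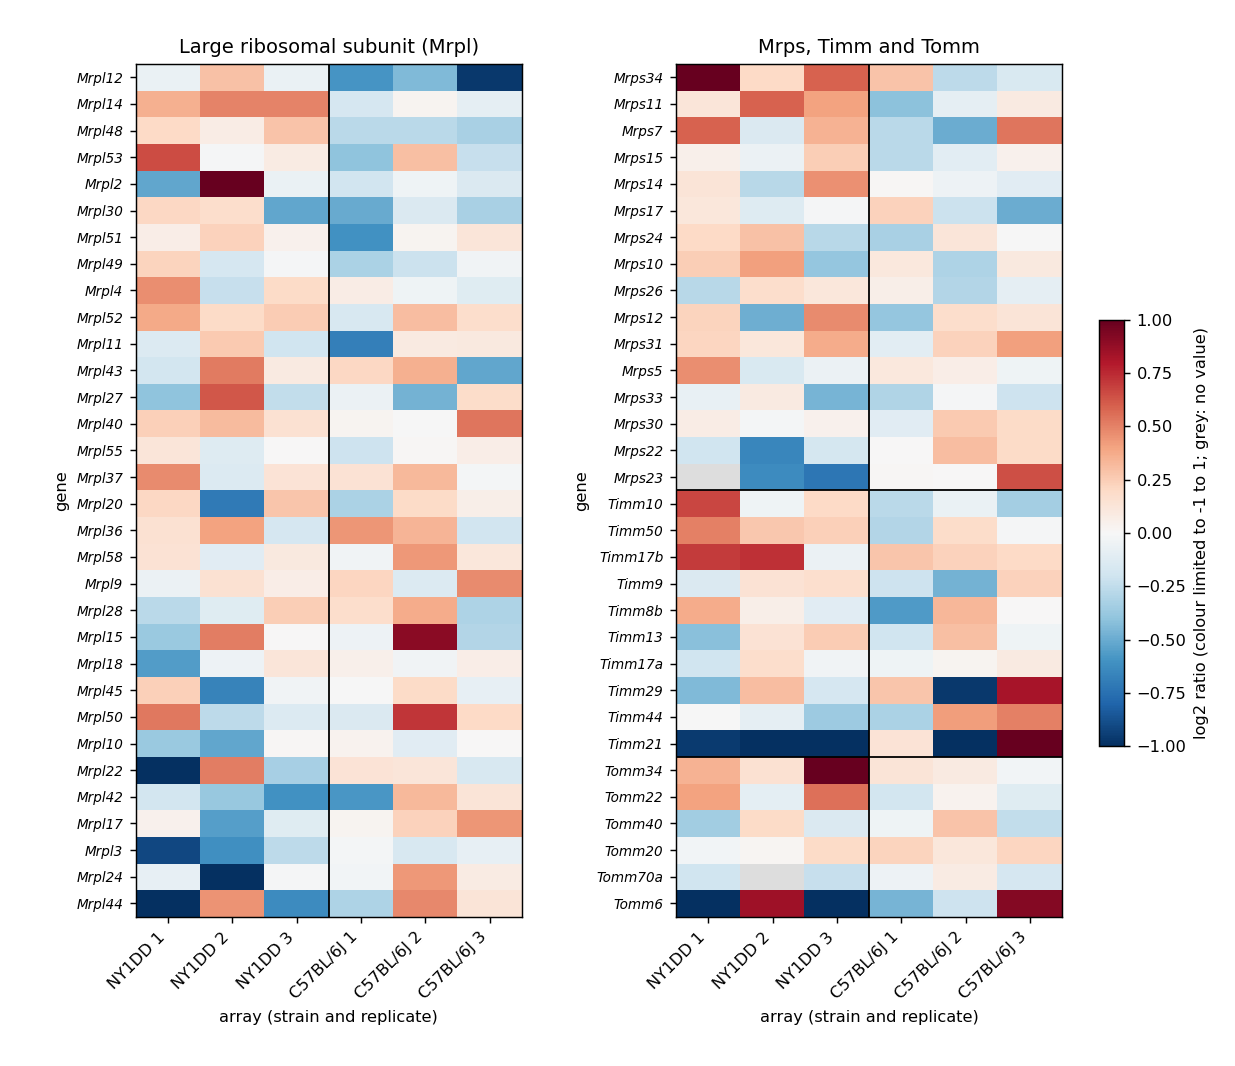
Log2 ratio of each member on each array, NY1DD left of the black line and C57BL/6J right of it, families separated by lines and genes ordered by the difference between strains within a family. Mrpl14 and Mrpl48 are above 0 on every NY1DD array and Mrpl3 is below 0 on all 6 arrays.

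Mrpl genes, of the large subunit, lay on both sides of 0 in NY1DD, with 18 of 32 above 0 (median 0.03), and in C57BL/6J, with 16 of 32 above 0 (median 0.00). Mrpl14, a protein of the face that meets the small subunit, had log2 ratios of 0.35, 0.49 and 0.49 on the NY1DD arrays, against -0.16, 0.03 and -0.09 on the C57BL/6J arrays. Its NY1DD arrays lay close together and above every C57BL/6J array. The NY1DD mean was 0.45 (SE 0.13, n = 3, limma adjusted p = 0.494) and the C57BL/6J mean -0.08. Mrpl3, a protein near the centre where peptide bonds form, had -0.91, -0.61 and -0.26 on the NY1DD arrays, against -0.02, -0.16 and -0.08 on the C57BL/6J arrays. All 6 arrays were below 0 for Mrpl3, which no other member showed, as 1 of 64 or 1.56%, against 4.69% of all features. Above 0 on all 6 arrays were 0 of 64, against 2.68% of all features. The NY1DD mean of Mrpl3 was -0.59 (SE 0.16, n = 3, limma adjusted p = 0.494), and its C57BL/6J mean -0.09. Mrpl12, a protein of the stalk that binds translation factors, had -0.07, 0.29 and -0.07 on the NY1DD arrays, against -0.59, -0.44 and -0.96 on the C57BL/6J arrays. The C57BL/6J arrays lay below every NY1DD array, with a mean of 0.05 (SE 0.16) in NY1DD and of -0.66 (SE 0.16) in C57BL/6J, n = 3 each, and its limma adjusted p of 0.267 in C57BL/6J was the smallest of any member in that strain. Mrpl48 had 0.20, 0.07 and 0.28 on the NY1DD arrays, against -0.27, -0.27 and -0.32 on the C57BL/6J arrays. Its SD of 0.03 in C57BL/6J was the narrowest of the members there, and it alone among members was above 0 on all NY1DD arrays and below 0 on all C57BL/6J arrays (1 of 64, 1.56%, against 1.31% of all features).

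Several large subunit genes had widely spread NY1DD arrays. Mrpl44 had -1.36, 0.45 and -0.63 on the NY1DD arrays, against -0.30, 0.48 and 0.13 on the C57BL/6J arrays. Mrpl22 had -1.12, 0.51 and -0.33, against 0.13, 0.12 and -0.16. Mrpl2 had -0.52, 1.08 and -0.06, against -0.19, -0.04 and -0.15, so that replicate 2 was the highest NY1DD array and alone above 0 in each of these genes. The probes of Mrpl44 and Mrpl2 lie in column 1 of the source plates. All probes of that column had medians of -0.17, 0.15 and -0.26 on the NY1DD arrays, the same order of signs. Genes with narrow NY1DD arrays included Mrpl40, at 0.24, 0.32 and 0.15, against 0.03, -0.01 and 0.54 in C57BL/6J, and Mrpl52, at 0.38, 0.19 and 0.26, against -0.16, 0.31 and 0.17. Both were above 0 on every NY1DD array, like 10 of 64 members (15.6%, against 14.3% of all features). Mrpl30 was below 0 on every C57BL/6J array, with a mean of -0.05 in NY1DD and of -0.32 (SE 0.18, n = 3, limma adjusted p = 0.857) in C57BL/6J, or of -0.19 there with the median of each probe's plate position subtracted. Mrpl58, a peptidyl-tRNA hydrolase built into the ribosome, had 0.04 in NY1DD and 0.17 in C57BL/6J.

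Mrps genes, counted by name and so with Mrps30, lay mostly above 0 in NY1DD, where 12 of 16 were above 0 (median 0.08). They did not in C57BL/6J, where 5 of 16 were (median -0.05). Across all features 47.5% were above 0 in NY1DD and 49.9% in C57BL/6J. The NY1DD arrays differed in this: 12 of 15 measured genes were above 0 on replicate 1, 7 of 16 on replicate 2 and 9 of 16 on replicate 3, with medians of 0.13, -0.04 and 0.08, against -0.05, -0.03 and 0.07 on the C57BL/6J arrays. Mrps34 had 1.99, 0.20 and 0.59 on the NY1DD arrays, against 0.29, -0.26 and -0.15 on the C57BL/6J arrays. Its NY1DD mean was 0.93 (SE 0.32, n = 3, limma adjusted p = 0.573), and without NY1DD replicate 1 it was 0.40. Mrps11, which lies near the exit site of the message, had 0.12, 0.59 and 0.40, against -0.41, -0.09 and 0.09. On the other side, Mrps23 had -0.63 and -0.72 on NY1DD replicates 2 and 3 and no value on replicate 1, against 0.01, 0.01 and 0.64 on the C57BL/6J arrays. Mrps22 had -0.20, -0.65 and -0.17, against 0.01, 0.31 and 0.19. Both genes were below 0 on every NY1DD array with a value and above 0 on every C57BL/6J array, a pattern of 2 of 64 members (3.12%, against 1.09% of all features). Mrps30, which structures of the mammalian ribosome place in the large subunit in spite of its name, had 0.07, -0.02 and 0.05, against -0.12, 0.26 and 0.19.

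At the outer membrane, 3 of 6 Tomm genes were above 0 in NY1DD (median -0.02) and 4 of 6 in C57BL/6J (median 0.03). Tomm20, a receptor for presequences, had -0.02, 0.02 and 0.19 on the NY1DD arrays, against 0.22, 0.12 and 0.21 on the C57BL/6J arrays, and its C57BL/6J mean of 0.18 (SE 0.13, n = 3, limma adjusted p = 0.913) was the one with the smallest p among members above 0 there. Tomm22, the central receptor, had 0.40, -0.10 and 0.55, against -0.18, 0.03 and -0.12. Tomm40, the channel, had -0.35, 0.19 and -0.15, against -0.04, 0.28 and -0.24, and its arrays overlapped between strains. Tomm70a, a receptor for carrier precursors, had -0.20 and -0.23 on NY1DD replicates 1 and 3 and no value on replicate 2, against -0.05, 0.08 and -0.17. Tomm6, a small subunit that steadies the complex, had the widest NY1DD spread of all members, at -1.10, 0.85 and -1.04, against -0.46, -0.21 and 0.92. The probe of Tomm6 also lies in column 1. Its NY1DD mean of -0.43 was -0.21 with the median of each probe's plate position subtracted. Tomm34, a cytosolic partner of chaperones rather than a part of the TOM complex, had 0.35, 0.16 and 1.02, against 0.13, 0.09 and -0.02. Its NY1DD mean was 0.51 (SE 0.19, n = 3, limma adjusted p = 0.579), and 0.25 without NY1DD replicate 3.

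At the inner membrane, 5 of 10 Timm genes were above 0 in NY1DD and 6 of 10 in C57BL/6J. Timm17b, which forms the path of the TIM23 complex, had 0.70, 0.73 and -0.06 on the NY1DD arrays, against 0.27, 0.23 and 0.20 on the C57BL/6J arrays. Its NY1DD mean was 0.46 (SE 0.18, n = 3, limma adjusted p = 0.586), whereas its paralog Timm17a had -0.02 in NY1DD and 0.03 in C57BL/6J. Timm50, the receptor that hands precursors to TIM23, had 0.50, 0.27 and 0.23, against -0.29, 0.18 and -0.01. Timm44, which docks the import motor, had 0.00, -0.09 and -0.36, against -0.32, 0.42 and 0.50. Of the small chaperones, Timm10 had 0.67, -0.04 and 0.20, against -0.27, -0.07 and -0.34, so its NY1DD arrays all lay above its C57BL/6J arrays. Its partner Timm9 had -0.14, 0.14 and 0.17, against -0.21, -0.47 and 0.23, and the other pair, Timm8b and Timm13, averaged 0.11 and -0.01 in NY1DD, against -0.08 and 0.02 in C57BL/6J. Timm21, which links TIM23 to the TOM complex, had the largest NY1DD mean by size, at -0.96, -2.25 and -1.36, against 0.14, -1.78 and 1.88. The NY1DD mean was -1.52 (SE 0.61, n = 3, limma adjusted p = 0.583), and its C57BL/6J arrays spanned that value and its opposite.

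**Figure D3:**
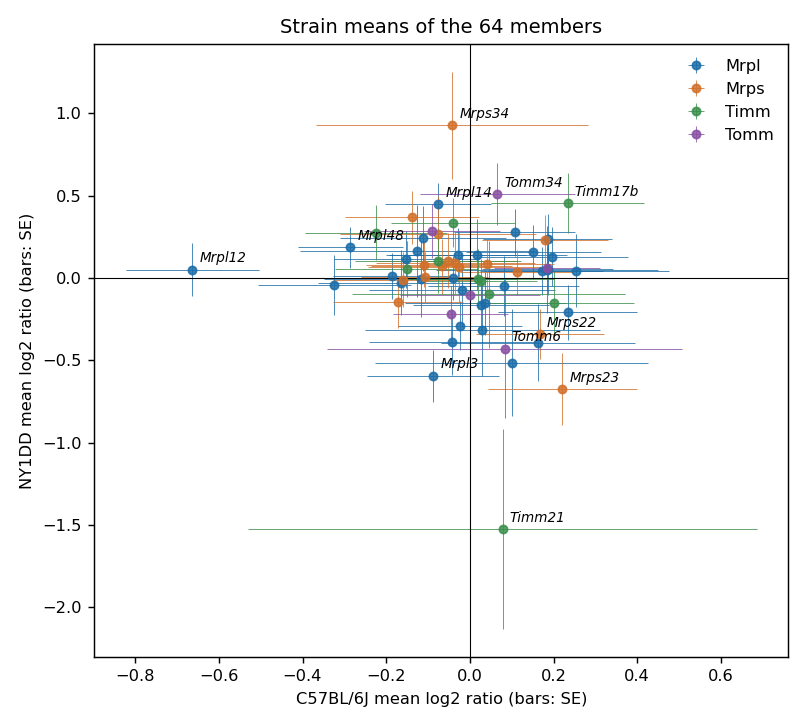
Mean log2 ratio of each member in NY1DD (vertical) and in C57BL/6J (horizontal), coloured by family, with bars for the SE of the limma model. Mrpl12 stands apart along the C57BL/6J axis at -0.66, and Mrps34 (0.93) and Timm21 (-1.52) along the NY1DD axis.

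The next comparison asks whether the response to naloxone differed between sickle cell and wild-type brain. In NY1DD, 36 of 64 members had the higher mean (median difference 0.05, against -0.01 over all features). NY1DD had the higher mean for 13 of 16 Mrps genes (median 0.12) and for 16 of 32 Mrpl genes (median -0.03). It was higher for 5 of 10 Timm genes (median 0.08) and for 2 of 6 Tomm genes (median -0.11), and for 48.3% of all features. Most cytosolic ribosomal proteins (31 of 40, median 0.17) and oxidative phosphorylation genes (39 of 58, median 0.07) were also higher in NY1DD. Mrpl12 differed by 0.71 (SE 0.23), Mrpl14 by 0.52 (SE 0.18) and Mrpl48 by 0.47 (SE 0.18), each with 3 arrays per strain. Mrps23 differed by -0.90 (SE 0.28, 2 NY1DD arrays), Mrps22 by -0.51 (SE 0.22) and Mrpl3 by -0.51 (SE 0.22). The limma adjusted p was 0.969 for all 6 of these genes. At an unadjusted p under 0.05 stood 4 of 64 members, or 6.25%, against 4.5% of all features: Mrpl12, Mrpl14 and Mrpl48 with NY1DD higher (4.69%, against 2.75%) and Mrps23 with NY1DD lower (1.56%, against 1.76%). That count was 9 of 63 without NY1DD replicate 2 (14.3%, against 5% of all features), 2 of 62 without NY1DD replicate 3 (3.23%, against 5.99%) and 2 of 64 without C57BL/6J replicate 3 (3.12%, against 2.95%). Mrps23 was not among the genes tested without NY1DD replicate 2 or without NY1DD replicate 3.

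The arrays of the strains did not overlap for 11 of 64 members, or 17.2%, against 10.2% of all features. NY1DD was above C57BL/6J for 7 of them (10.9%, against 5.62%): Mrpl12, Mrpl14, Mrpl48, Mrps11, Timm10, Timm50 and Tomm34. It was below for 4 (6.25%, against 4.58%): Mrpl3, Mrps22, Mrps23 and Tomm70a, the last 2 with 2 NY1DD arrays each. Gaps between the strains were small beside the range for several of these, as in Tomm34, where the lowest NY1DD array had 0.16 and the highest C57BL/6J array 0.13.

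**Figure D4:**
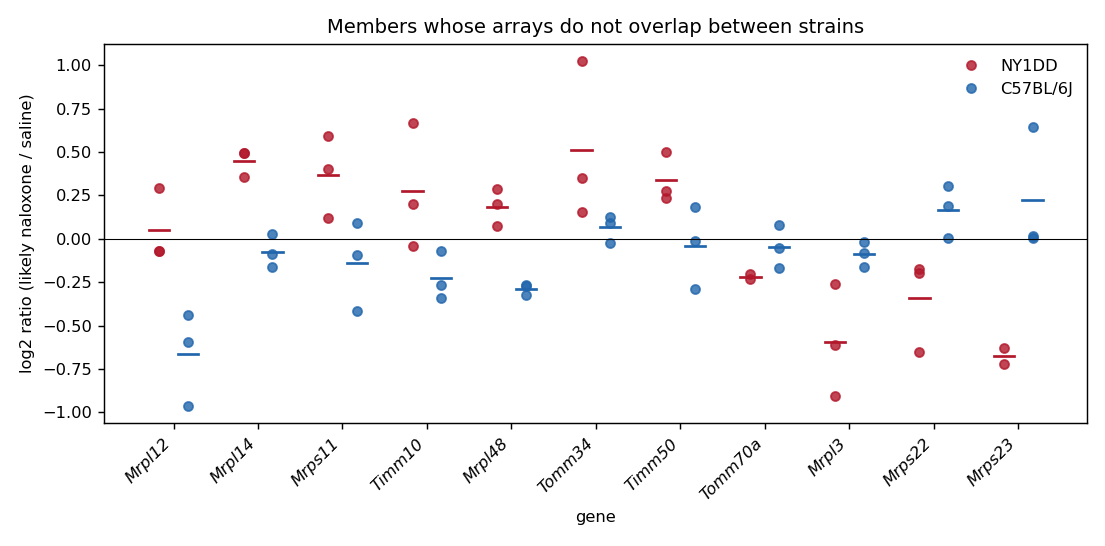
Log2 ratio on each array (points) and strain mean (short lines) of the 11 members whose NY1DD and C57BL/6J arrays do not overlap, NY1DD left of C57BL/6J for each gene. Mrpl14 and Mrpl48 have tight arrays on both sides; Mrps23 and Tomm70a have 2 NY1DD arrays.

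Averaged over both strains, where a dye bias does not cancel, 35 of 64 members lay above 0 (median 0.01, against -0.01 over all features). At an unadjusted p under 0.05 stood 3 of 64, or 4.69%, against 10.8% of all features: Timm17b with 0.34 (SE 0.13), Mrpl3 with -0.34 (SE 0.11) and Mrpl12 with -0.31 (SE 0.11). Timm17b was above 0 (1.56%, against 3.4% of all features) and the other two below (3.12%, against 7.37%). Their limma adjusted p values over 6 arrays ran from 0.335 to 0.407. The count was 0 of 63 without NY1DD replicate 1 (0%, against 8.71% of all features) and 5 of 63 without NY1DD replicate 2 (7.94%, against 14.8%). It was 1 of 64 without C57BL/6J replicate 1 (1.56%, against 8.64%) or replicate 2 (1.56%, against 8.48%).

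Position in the source plates moved with some of these values. Probe IDs read as a plate, a row and a column, and 27.5% of the variance of NY1DD replicate 2 lay between such positions, against 3.20% to 11.4% for the other arrays. Columns 1 and 7 were high on NY1DD replicate 2, with medians of 0.15 and 0.17 over all their probes. They had -0.17 and -0.15 on NY1DD replicate 1, and -0.26 and -0.28 on NY1DD replicate 3. The 6 member probes in column 12 were all below 0 on NY1DD replicate 2, with a median of -1.0, where the 921 probes of that column had -0.47 and the other columns together 0.03. Column 6 was nearly as low on that array, with a median of -0.45 over all its probes, and its 3 member probes had 0.40 for Mrpl36, -0.16 for 1 of 2 probes of Tomm20 and -0.10 for Tomm22. Without NY1DD replicate 2 the NY1DD means of these genes were -0.01 for Mrpl36 (0.13 with it), 0.08 for Tomm20 (0.06) and 0.48 for Tomm22 (0.28). On NY1DD replicates 1 and 3 the 6 probes of column 12 had medians of 0.08 and 0.00. They belong to Mrpl17, Mrpl20, Mrpl24, Mrpl45 and Timm21. Without NY1DD replicate 2 the NY1DD means were 0.24 for Mrpl20 (-0.08 with it), -0.05 for Mrpl24 (-0.39), 0.10 for Mrpl45 (-0.15), -0.04 for Mrpl17 (-0.21) and -1.16 for Timm21 (-1.52). With the median of each well position subtracted, they were 0.23, -0.25, -0.07, -0.18 and -1.36, in the same order. The genes named for the difference between strains lie in columns 4, 8, 10 and 11, and after this correction differed by 0.64 for Mrpl12, 0.52 for Mrpl14, 0.40 for Mrpl48, -0.93 for Mrps23, -0.45 for Mrps22 and -0.63 for Mrpl3.

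**Figure D5:**
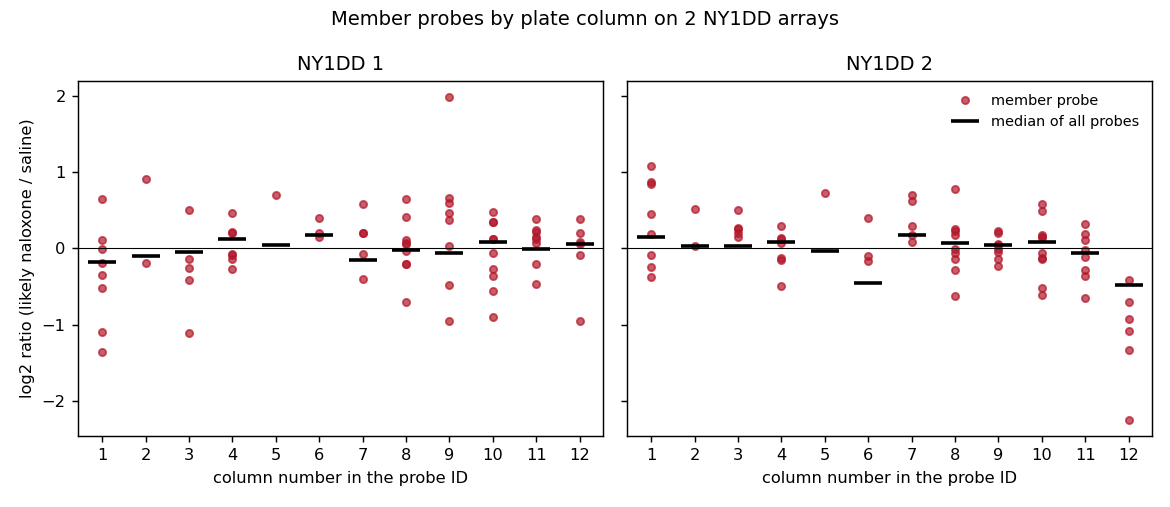
Log2 ratio of each member probe (points) by the column number in its ID, with the median of all probes of that column (black bars), on NY1DD replicates 1 and 2. On replicate 2 the 6 member probes of column 12 lie below 0, with a median of -1.0; on replicate 1 their median is 0.08.

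Genes with several probes show how far probes of 1 gene can differ. Of the 75 member probes, 2 did not pass the filter, 1 of Mrps14 and 1 of Mrps7, and 8 genes kept more than 1. The 2 probes of Tomm20 were closest, with a median gap of 0.07 between them over the arrays and the same sign on 4 of 6. Mrpl50 had a median gap of 0.23 and the same sign on 5 of 6 arrays, and Mrpl17, with 1 probe in column 12, a median gap of 0.37 and a largest of 1.56. The median gap was 0.26 for Mrpl45 and 0.52 for Mrpl15, with the same sign on 4 of 6 arrays for both, 0.33 for Mrps10 with 3 of 6, and 0.37 for Mrpl49 with 2 of 6. The 3 probes of Timm29, a subunit of the TIM22 complex, agreed in sign on 1 of 6 arrays, with a median gap of 1.09. One of them had -2.42 on C57BL/6J replicate 2 and 2.16 on replicate 3, so the C57BL/6J mean of Timm29, 0.04 with an SD of 0.91, rests on opposed values.

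By their strain means, genes that work with these proteins lay mostly below 0 in NY1DD. Over all features, 47.5% of means were above 0 in NY1DD and 49.9% in C57BL/6J, and 48.3% were higher in NY1DD. Of 17 measured factors of mitochondrial translation and ribosome maturation (35 listed), 4 were above 0 in NY1DD (median -0.14) and 8 in C57BL/6J (median -0.02), and 5 had the higher mean in NY1DD (median difference -0.20). The smallest p on either side of 0 belonged in NY1DD to Tufm, an elongation factor, with 0.45 (SE 0.34), and Mrrf, the ribosome recycling factor, with -0.41 (SE 0.17). In C57BL/6J it belonged to Mterf4, with 0.33 (SE 0.19), and Mtif3, an initiation factor, with -0.86 (SE 0.17, n = 3, limma adjusted p = 0.196). Import partners outside the TOM and TIM names, such as chaperones, processing peptidases and sorting proteins, had 3 of 14 above 0 in NY1DD (median -0.16) and 7 of 14 in C57BL/6J (median -0.02). Among these, Chchd10, a protein of the space between the membranes, had 0.49 in NY1DD (limma adjusted p = 0.494) and 0.34 in C57BL/6J (limma adjusted p = 0.676), with SE 0.13 and n = 3 in each, and Dnajc15, a partner of the import motor, had -0.32 in NY1DD and -0.17 in C57BL/6J, also with SE 0.13. Mitochondrial aminoacyl-tRNA synthetases, which charge tRNAs for this ribosome, were measured for 5 of 17, with Cars2 at 0.12 (SE 0.13) and Mars2 at -1.18 (SE 0.34, n = 3, limma adjusted p = 0.525) in NY1DD, and Fars2 at 0.79 (SE 0.63) and Mars2 at -0.71 (SE 0.42) in C57BL/6J, each over 2 C57BL/6J arrays. Proteases and cristae proteins had 4 of 11 above 0 in NY1DD (median -0.11) and 5 of 11 in C57BL/6J (median -0.01). Micos10, a part of the complex that shapes cristae, had -0.77 in NY1DD (SE 0.21, n = 3, limma adjusted p = 0.494), -1.18 in C57BL/6J (SE 0.21, n = 3, limma adjusted p = 0.196) and -0.97 in the average of both (SE 0.15, limma adjusted p = 0.179). Above 0, the smallest p belonged to Clpx, a subunit of a matrix protease, with 0.18 in NY1DD (SE 0.18), and to Parl, a protease of the inner membrane, with 0.10 in C57BL/6J (SE 0.16). Of the 5 synthetases, 2 had a mean above 0 in NY1DD and 3 in C57BL/6J. Single NY1DD arrays were less one-sided. On replicates 1, 2 and 3, 6, 6 and 6 of 17 translation factors and 5, 6 and 5 of 14 import partners were above 0. For proteases and cristae proteins it was 7, 4 and 3 of 11, and for synthetases 3, 1 and 3 of 5. For scale, 28 of 40 cytosolic ribosomal proteins (median 0.13) and 38 of 58 oxidative phosphorylation genes (median 0.10) were above 0 in NY1DD, against 21 of 40 (median 0.01) and 27 of 58 (median -0.02) in C57BL/6J. Rps2 had 0.54 in NY1DD and 0.38 in C57BL/6J (SE 0.17 each), and Rpl19 had -0.44 in NY1DD and -0.60 in C57BL/6J (SE 0.16 each). Among complex I genes, Ndufs6 had 0.57 in NY1DD (SE 0.13), Ndufs4 had -0.40 in NY1DD and 0.40 in C57BL/6J (SE 0.16 each), and Ndufb7 had -0.56 in C57BL/6J (SE 0.14). None of these genes passed over all features, and whether any list differs from the members was not tested.

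Markers of cell types showed no passing gene either. NY1DD medians were 0.11 for 6 of 6 neuron markers, 0.17 for 4 of 6 oligodendrocyte markers, -0.15 for 5 of 6 astrocyte markers, 0.00 for 3 of 6 microglia markers and 0.05 for 4 of 6 endothelial markers, against 0.08, 0.06, 0.07, -0.05 and -0.02 in C57BL/6J, and 0 of 6 blood markers were measured under the listed symbols. Their part in the members' values was not tested.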

How the data were processed

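Each array was deposited as natural log (ln) ratios between its Cy5 and Cy3 channels. No source names the log base; base e fits the values, whose lowest is then a ratio of 0.01 and of which 403 in 67941 are whole multiples of 0.1 (tolerance 1e-06), where base 2 gives 1 and base 10 gives 2. How the authors normalized, background-corrected or filtered spots, and with which software, is not stated in the labels used here.

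Values were converted to log2, those at the lower limit treated as missing, and 30 control spots left out. Probes with values on fewer than 2 arrays in either strain were dropped. Arrays were centred on their medians and probes of 1 symbol averaged, which left 11340 probes in 9685 features. Symbols came from the platform annotation; 64 of 64 members matched RefSeq by gene number. A mean for each strain was fitted over 6 arrays with limma 3.58.1 in R 4.3.3 (4 residual and 3.13 prior degrees of freedom); tests were two-sided and the fit was tested on simulated data. The fold scale is log2 throughout, and the number of arrays limits precision.

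Members and lists were chosen with earlier results of these data known. Named genes are, per comparison, the 3 members on each side of 0 with the smallest p, the core import proteins and members with several probes, and from each related list the gene with the smallest p per direction; of the lists, those for the 2 strain means are printed, without cell type markers, and further members were named after their values were seen. Promoter windows are RefSeq's, and motifs other than the ETS core were searched and are not reported here. Alternatives covered the lower limit, filter, centring, spread, probe summary, exact zeros, well position, a replicate block, the title number as a block, and leaving out each array.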

Additional observations from a re-analysis of the deposited data

Results flagged for a closer look

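For 3 members every array of one strain lay on the opposite side of 0 from every array of the other. Mrpl48 was above 0 in NY1DD and below 0 in C57BL/6J, with a difference of 0.47. Mrps22 and Mrps23 were below 0 in NY1DD and above 0 in C57BL/6J, with differences of -0.51 and -0.90. The first pattern held for 1 of 64 members (1.56%) and 1.31% of all features, the second for 2 of 64 (3.12%) and 1.09%. The difference itself was tested and did not pass (limma adjusted p = 0.969 for each, with n = 3 arrays per strain, or 2 in NY1DD for Mrps23). Groups of 3 arrays were not searched for outliers.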

How the results depend on the processing

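Under every alternative run, 0 features and 0 members passed in each of the 4 comparisons. The member values named by p kept their direction (238 of 238 values, and 140 of 140 leaving out 1 array). These genes were picked by their p in these same data, so a kept direction was largely set in advance. The counts include means of a strain where the array left out belonged to the other strain. Mrps23 was not counted without NY1DD replicate 2, without NY1DD replicate 3 or with a value required on all 6 arrays, where it failed the filter. The members' median minus that of other genes ran from 0.04 to 0.09 in NY1DD and from -0.02 to 0.04 in C57BL/6J when 1 array was left out. Counts of members with an unadjusted p under 0.05 moved more. In NY1DD the count was 7 of 64 (10.9%, against 8.35% of all features). It was 9 without centring (14.1%, against 8.35%) and 5 with arrays scaled to one spread (7.81%, against 6.77%). Leaving out 1 array it was 5 to 8 (7.94% to 12.7%, against 6.23% to 11.9%). In C57BL/6J the count was 1 of 64 (1.56%, against 6.93%). It was 2 (3.12%) with the lower limit kept (against 6.75%) or with arrays scaled to one spread (against 8.87%). With the well position correction it was also 2 (3.12%, against 7.38%). Leaving out 1 array it was 1 (1.56% to 1.61%, against 4.95% to 7.85%) or 2 (3.12%, against 6.03%). For the difference between strains it was 4 of 64 (6.25%, against 4.5% of all features), and 2 to 9 leaving out 1 array. It was 6 with the well position correction (9.38%, against 5.18%). The count of 9 was 14.3% of 63, against 5% of all features. The count of 2 was 3.23% of 62, against 5.99%, or 3.12% of 64, against 2.95%. For the average it was 3 of 64 (4.69%, against 10.8% of all features). It was 5 without centring (7.81%, against 11%) and 5 with the replicate block (7.81%, against 10.5%). Leaving out 1 array it was 0 to 5, from 0% against 8.71% of all features to 7.94% against 14.8%. What a replicate number shares between strains is not stated. The correlations of deviations of same-numbered arrays were -0.0704, 0.0566 and 0.0203, and NY1DD replicate 1 correlated best with C57BL/6J replicate 3 (0.0786). Correlations were low between all arrays, so these values cannot show whether same-numbered arrays share more than a name. With the replicate block the counts at an unadjusted p under 0.05 were 8 in NY1DD (7 without it), 1 in C57BL/6J (1) and 5 for the difference (4). These counts were 12.5%, 1.56% and 7.81% of members, against 8.24%, 7.12% and 5.12% of all features. With that block 0 features passed in any comparison. With the title number as a random block (one correlation of 0.42, by restricted maximum likelihood over all features) 0 features passed. That estimate rests on the only pair sharing a number, C57BL/6J replicates 1 and 2. Across features their Pearson correlation was 0.148, against 0.124 and 0.127 for the other C57BL/6J pairs. Signal over background is unknown, so dim probes could not be set apart.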

Other observations

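Probes that the annotation gives to a member and another gene at once were left out of the set. The probe shared by Mrps25 and Nr2c2 was above 0 on all 6 arrays, at 0.05, 0.41 and 0.37 in NY1DD and 0.38, 0.12 and 0.40 in C57BL/6J. The probe shared by Tomm70a and Mgat1 had -1.27, 0.48 and -0.03 in NY1DD and 0.27, -0.26 and -0.63 in C57BL/6J, unlike the probe of Tomm70a alone. The probe shared by Dnhd1 and Timm10b had -1.02, 0.14 and -0.87 in NY1DD and -0.16, -0.45 and -0.12 in C57BL/6J.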
